A study of Mus musculus with 16 samples.

Results

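The genes described here are both liver X receptors and 7 genes that these receptors are known to regulate in lipid export and lipid composition. The receptors are Nr1h2 (LXRβ) and Nr1h3 (LXRα), and the targets are Abca1, Abcg1, Apoe, Mylip, Lpcat3, Scd1 and Scd2. They were taken by name, 9 of the 55335 genes in the count tables, and all 9 were among the 19764 genes that passed the filter on low counts, with 35 or more counts in every library. RNA came from mouse neural stem cells turned into oligodendrocyte precursors (OPCs) and kept as a monolayer for 4 days. The cells came from mice of C57BL6J/129svEmx mixed background. Of the 4 groups, the WT-labelled ones (RXRg+/+) and the RXRgKO-labelled ones (RXRg-/-) were each either untreated or given the thyroid hormone T3 for 24 h, with 4 libraries in each group. No LXR ligand is named for any group. No label names a separate culture or animal for each library, so the p-values describe the spread between libraries, which may be technical.

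Liver X receptors sense oxidised cholesterol. They bind DNA as heterodimers with a retinoid X receptor (RXR), at direct repeats of a short hexamer motif separated by a few bases, and they switch on genes that move cholesterol out of the cell, load it onto lipoproteins, limit its uptake and change the fatty acids of membranes. In the oligodendrocyte lineage, which builds the lipid-rich myelin sheath, sterol export and fatty acid desaturation bear on membrane supply. Thyroid hormone receptors also pair with RXR, and T3 is a classic stimulus of oligodendrocyte differentiation.

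The libraries held 18262279 to 42588442 counts in genes. Normalised levels are given as CPM (counts in a gene relative to the library's total, scaled) after TMM scaling of library sizes. The reads carry no molecular identifiers, so a count of reads is not a count of molecules. Rxrg, the gene the knockout targets, ran against these labels. It was at 1.79, 1.48, 1.137 and 1.65 CPM in the untreated WT-labelled libraries and at 4.83, 3.77, 4.60 and 3.79 CPM in the untreated RXRgKO-labelled ones. With T3 the values were 0.885, 0.960, 0.597 and 0.371 CPM under the WT label and 5.45, 4.89, 4.27 and 5.05 CPM under the RXRgKO label. All directions between genotypes below are therefore those of the labels and not of a verified loss of Rxrg. Which part of Rxrg the allele removes is not given in the sources used here, and a count over the whole gene does not show whether a transcript is intact. Markers of OPCs summed to 1895 to 4207 CPM over the libraries, those of mature oligodendrocytes to 1686 to 29676 CPM and those of astrocytes to 3035 to 15687 CPM, so all of these classes were detected in every group.

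The libraries fell into sets that the labels do not name. WT-labelled replicate 1 stood apart in both treatments, where Gfap, which encodes the filament protein of astrocytes, reached 4728 CPM without and 11207 CPM with T3. Replicates 2 to 4 had 819 to 1001 and 2455 to 2834 CPM of it. Among the RXRgKO-labelled libraries, untreated replicates 1 and 3 and T3-treated replicates 1 and 2 had Xist at 1.39 to 3.75 CPM, while the other 4 libraries had it at 543 to 723 CPM. The sets also differed in the share of reads that fell in genes. It was 41% and 46.8% in WT-labelled replicate 1, and 25.4% to 32.9% in replicates 2 to 4. Among RXRgKO-labelled libraries it was 22.4% to 29.5% in those lacking Xist and 33.1% to 39.7% in those with it. The part of this in the results was not tested. Because results below rest on these sets in part, values by set or without a set are given beside them. Whether libraries of a set share a culture is not given, and a set is not uniform across treatment. In WT-labelled replicates 2 to 4 Xist was at 1198 to 1382 CPM untreated but 276 to 365 CPM with T3, and Ddx3y, a Y-linked gene, at 13.9 to 15.8 against 68.1 to 78.3 CPM. The RXRgKO-labelled libraries that had Xist held 51.2 and 52.9 CPM of Ddx3y before T3 but 20.7 and 22.1 CPM after it. WT-labelled replicate 1 and the RXRgKO-labelled libraries lacking Xist moved less, with Ddx3y at 73.3 and 60.7 CPM in the first and 115 to 126 CPM in the second. Comparisons of T3 with untreated libraries, also within these sets, therefore set libraries of different Xist and Ddx3y levels side by side, and the part of this in the results was not tested.

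The promoter of Abca1 is shown because it carries the best-known LXR element of these genes. RefSeq promoters of GRCm38.p6 were found for 6 of the 9 genes, Nr1h2, Nr1h3, Abca1, Apoe, Mylip and Lpcat3, and not for Abcg1, Scd1 and Scd2. The sequence is the 250 bases before the start of Abca1 (chr4:53159896-53160145, minus strand), and the capitals mark the match to GTTANNNNCGGTCA on the opposite strand, at bases -67 to -54 from the start.
Abca1: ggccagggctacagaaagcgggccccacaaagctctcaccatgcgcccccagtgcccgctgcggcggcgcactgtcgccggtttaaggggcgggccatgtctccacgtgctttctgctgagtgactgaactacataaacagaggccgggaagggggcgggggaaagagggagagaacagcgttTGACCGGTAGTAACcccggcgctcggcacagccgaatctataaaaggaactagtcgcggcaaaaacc
That motif holds 1 whole hexamer, 4 free bases and the last 4 bases of a partner hexamer. It was chosen after this sequence had been seen, and 6 of 32851 promoter windows of the same length held it on either strand, 0.0183%. A search for the 4 common LXR hexamers (AGGTCA and the variants AGTTCA and GGGTCA and GGTTCA) repeated in the same direction with 4 bases between them found no match in the 9 windows of the 6 genes, and 0.067% of all windows held one. The single hexamer AGGTCA, which such repeats can contain, was in none of these windows and in 14.0% of all windows. The E-box CACGTG occurred once in the Abca1 window, and 6.02% of all windows held it. GC boxes (GGGCGG), held by 32.7% of all windows, were counted 2 times in the Abca1 window, 5 times in that of Lpcat3 and once in that of Mylip. These are descriptions of letters in short windows and say nothing of binding.

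Per kilobase of exon, the 9 genes spanned a wide range of levels. In the untreated WT-labelled libraries Apoe stood at 748 ± 370 CPM per kb (SD, n = 4), rank 14 among 21899 protein-coding genes, and Scd2 at 566 ± 200 CPM per kb, rank 20. Their libraries overlapped, so the order of this pair is not set. Scd1 followed at 98.1 ± 30.8 CPM per kb and Abca1 at 25.7 ± 0.91 CPM per kb, each clear of its neighbours. Lpcat3 at 12.0 ± 4.28 and Nr1h2 at 11.4 ± 1.84 CPM per kb overlapped, and their order turned when the longest transcript was used as length, to 16.5 and 19.1 CPM per kb. At the low end were Nr1h3 at 0.896 ± 0.231, Mylip at 0.866 ± 0.11 and Abcg1 at 0.654 ± 0.0687 CPM per kb. Nr1h3 and Mylip overlapped there, while Mylip and Abcg1 did not. In untreated RXRgKO-labelled libraries Abcg1 stood above both of these low genes, at 1.39 ± 0.151 CPM per kb, though its libraries overlapped those of both. The cholesterol exporter Abca1 and the lipoprotein Apoe were thus abundant transcripts in these cultures, and LXRβ was the more abundant receptor.

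**Figure D1:**
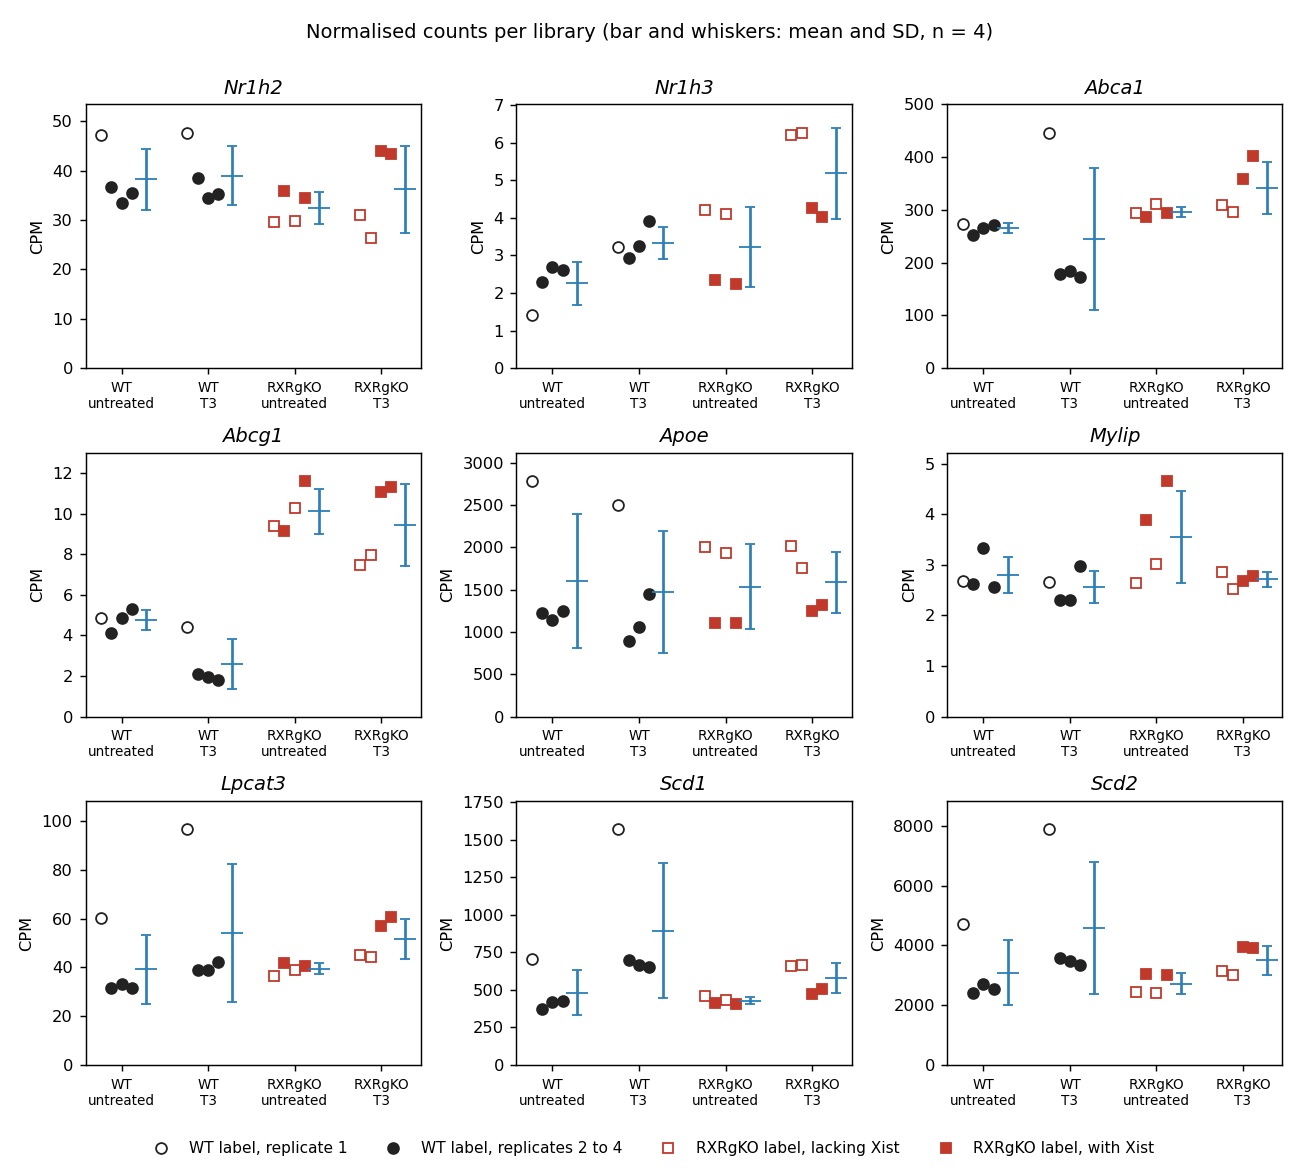
Each panel plots 1 gene in CPM on a linear axis from 0, with the 4 libraries of each of the 4 groups as points and the mean and SD beside them in blue. WT-labelled replicate 1 (open circle) lies above replicates 2 to 4 for Apoe, Lpcat3, Scd1 and Scd2 in both treatments, and the RXRgKO-labelled libraries lie above the WT-labelled ones for Abcg1.

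In the WT-labelled libraries, T3 changed 2 of the 9 genes at an adjusted p under 0.05 (edgeR quasi-likelihood test, adjusted over all 19764 genes): Scd1 rose and Abcg1 fell. That is a share of 22.2%, beside 8.44% of all genes tested, of which 4.96% rose and 3.48% fell. In the RXRgKO-labelled libraries none of the 9 was called, beside 2.81% of all genes (2.01% higher and 0.794% lower), and 2 of them, Nr1h3 and Mylip, had an unadjusted p under 0.05. DESeq2 also called none of the 9 there. Between the genotype labels 1 gene, Abcg1, was called in both treatments, an 11.1% share of the 9 beside 11.3% of all genes without T3 (6.17% higher, 5.16% lower) and 14.9% with T3 (8.1% higher, 6.8% lower). The median log2 fold change of the 9 genes was 0.03, 0.21, 0.01 and 0.08 in these 4 comparisons, beside medians of -0.032, -0.0019, -0.00082 and 0.025 over all genes. The comparisons share groups of libraries, so their values are not independent of each other. Libraries did not overlap between the groups for 1 gene, Nr1h3, with T3 in the WT-labelled libraries, where 15.4% of all genes did not overlap. Non-overlap held for Lpcat3 and Scd1 with T3 in the RXRgKO-labelled libraries (13.4% of all genes), for Abca1 and Abcg1 between the labels without T3 (18.7%) and for Nr1h3 and Abcg1 with T3 (18.1%).

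**Figure D2:**
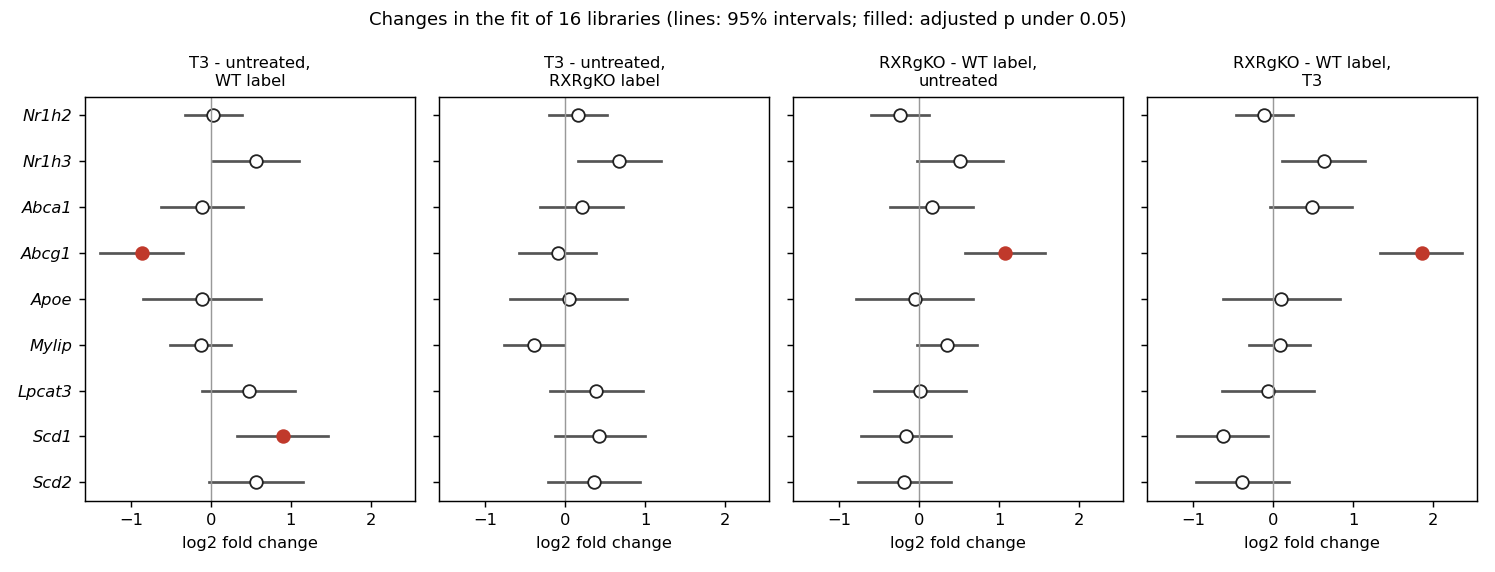
The 4 panels plot the log2 fold change of each of the 9 genes in the fit of all 16 libraries, with 95% intervals as lines and called genes filled in red. Abcg1 is called in 3 panels, Scd1 in that of T3 under the WT label alone, and no gene in that of T3 under the RXRgKO label.

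Of the receptors, Nr1h2 (chromosome 7, 44549616 to 44553951, minus strand, GRCm38), which encodes the broadly expressed LXRβ, differed little. It was at 47.3, 36.7, 33.4 and 35.5 CPM in the untreated WT-labelled libraries and at 47.7, 38.5, 34.5 and 35.3 CPM with T3. Values under the RXRgKO label were 29.6, 35.9, 29.8 and 34.4 CPM before and 31.0, 26.4, 44.0 and 43.4 CPM after T3. Groups overlapped in all 4 comparisons, and the spread lay mostly between sets. For T3 under the WT label the log2 fold change was 0.029 ± 0.17 (SE), with a 95% interval from -0.33 to 0.39. Between labels with T3 it was -0.11 ± 0.17. This last value was -0.51 (adjusted p = 0.0309, edgeR) when the RXRgKO-labelled libraries with Xist were left out. A fit that also held a term for the set gave 0.20 (adjusted p = 0.0483), so its sign depends on which libraries enter. Between labels, here and below, that fit compares WT-labelled replicates 2 to 4 with the RXRgKO-labelled libraries with Xist, not the whole groups.

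Nr1h3 (chromosome 2, 91184061 to 91202834, minus strand), which encodes the inducible LXRα, was a low transcript, with 35 to 164 counts per library. Its libraries were at 1.42, 2.28, 2.70 and 2.61 CPM in the untreated WT-labelled group and at 3.22, 2.93, 3.24 and 3.92 CPM with T3. All 4 T3-treated values lay above all 4 untreated ones. Untreated RXRgKO-labelled libraries had 4.21, 2.35, 4.09 and 2.24 CPM, and those given T3 had 6.19, 6.26, 4.27 and 4.01 CPM. These groups overlapped as a whole, since the 2 untreated libraries lacking Xist lay above the lowest T3-treated library, but they did not overlap within either set. The log2 fold change with T3 was 0.56 ± 0.26 (adjusted p = 0.206, edgeR) under the WT label and 0.68 ± 0.24 (adjusted p = 0.17) under the RXRgKO label, and neither passed. By set, the T3 difference on the log2 scale was 1.18 in WT-labelled replicate 1, 0.41 in replicates 2 to 4, 0.59 where RXRgKO-labelled libraries lacked Xist and 0.85 where they had it. With the set as a term both passed, at 0.59 (adjusted p = 0.00384) and 0.71 (adjusted p = 0.000335). Blocking on the replicate number in the 8 WT-labelled libraries, where the numbers were taken as pairs, gave 0.58 (adjusted p = 0.0392). These p-values treat libraries of a set as replicates, and no label states that equal numbers are pairs. Replicates 2 to 4 also differed in Xist and Ddx3y between treatments, so results of this block here and below rest on an unverified pairing.

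Between labels Nr1h3 did not pass the test, with 0.51 ± 0.25 (adjusted p = 0.258, edgeR) without T3 and 0.63 ± 0.25 (adjusted p = 0.102) with T3. It passed when the RXRgKO-labelled libraries with Xist were left out, at 0.81 (adjusted p = 0.0259) and 0.83 (adjusted p = 0.0159). Per kilobase, LXRα made up 7.54% ± 2.59 (SD, n = 4) of both receptors in untreated WT-labelled libraries and 10.4% ± 2.06 with T3. In RXRgKO-labelled libraries the share was 11.9% ± 4.45 untreated and 16.9% ± 6.65 with T3. None of these 4 differences held up (exact permutation test over libraries, two-sided, p from 0.143 to 0.286, adjusted over 8 comparisons 0.381 to 0.457).

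The RXR partners were measured alongside. Rxrb was at 33.2 to 53.8 CPM over the 16 libraries and Rxra at 15.5 to 34.8 CPM. Neither was called in any comparison of the fit of 16 libraries without a set term. Rxrg was called lower with T3 under the WT label (log2 fold change -1.10 ± 0.24, adjusted p = 0.00908, edgeR), and it was the only partner of 3 called there. Its T3 change under the RXRgKO label was 0.21 ± 0.20, not called. Against the WT label it was 2.80-fold higher without T3 (adjusted p = 0.000199) and 6.93-fold higher with T3 (adjusted p = 8.8e-07). Other fits called 2 of the 3 partners. Between untreated labels this was so without the RXRgKO-labelled libraries with Xist, and with T3 without either RXRgKO-labelled set. The set as a term gave 2 in both of these comparisons and for T3 under the WT label, and 1 for T3 under the RXRgKO label.

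Abca1 (chromosome 4, 53030787 to 53159895, minus strand) encodes the transporter that passes cholesterol and phospholipid to lipid-poor apolipoproteins. Its untreated WT-labelled libraries were at 274, 253, 265 and 272 CPM. With T3 they were at 447, 178, 184 and 172 CPM, so replicate 1 lay above every untreated library and replicates 2 to 4 below all of them. Untreated RXRgKO-labelled libraries were at 293, 287, 310 and 294 CPM, and T3-treated ones at 309, 297, 358 and 402 CPM. The T3 change under the WT label was -0.12 ± 0.24 (adjusted p = 0.828, edgeR). Leaving out T3-treated WT-labelled replicate 1 turned it into a called decrease of -0.59 (adjusted p = 0.0068), and leaving out both replicate 1 libraries gave -0.57 (adjusted p = 0.00567). For the RXRgKO-labelled libraries it was 0.21 ± 0.24 (adjusted p = 0.71). The sets there differed too, with a T3 difference of 0.00 in libraries lacking Xist and 0.39 in those with Xist.

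Between labels, untreated Abca1 values did not overlap but were only 0.16 ± 0.24 apart on the log2 scale (adjusted p = 0.79, edgeR). With T3 the difference was 0.48 ± 0.24 (adjusted p = 0.226). It passed at 0.95 without T3-treated WT-labelled replicate 1 (adjusted p = 9.05e-05) and at 0.84 with the set as a term (adjusted p = 0.00533). The difference between the T3 responses of the 2 labels, RXRgKO minus WT, was 0.32 ± 0.34 (adjusted p = 1.00), and 0.77 (adjusted p = 0.0428) without both replicate 1 libraries. For this exporter, T3-treated WT-labelled replicate 1 alone decides both of the first-named calls, the T3 change and the difference between labels with T3.

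Abcg1 (chromosome 17, 31057675 to 31117988, plus strand), which moves cholesterol onto mature lipoprotein particles, gave the largest difference between labels among the 9 genes. The untreated WT-labelled libraries were at 4.84, 4.10, 4.84 and 5.31 CPM, and those with T3 at 4.42, 2.11, 1.96 and 1.81 CPM. In untreated RXRgKO-labelled libraries it was at 9.42, 9.17, 10.3 and 11.6 CPM, and with T3 at 7.47, 7.95, 11.1 and 11.3 CPM. All 8 values under the RXRgKO label exceeded all 8 under the WT label. The difference was 1.08 ± 0.24 on the log2 scale without T3, 2.12-fold (adjusted p = 0.00522, edgeR), and 1.86 ± 0.24 with T3, 3.62-fold (adjusted p = 6.52e-05). Both calls held in all 25 alternatives, with ranges of 0.98 to 1.38 and 1.49 to 2.28.

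T3 lowered Abcg1 under the WT label (log2 fold change -0.87 ± 0.25, adjusted p = 0.0374, edgeR). This call rests on a narrow margin. Replicates 2 to 4 fell from 4.75 to 1.96 CPM on average, a difference of -1.27, while replicate 1 went from 4.84 to 4.42 CPM. With T3, replicates 2 to 4 held only 44, 46 and 44 counts of Abcg1. The call was lost in 14 of 26 alternatives, 11 of which leave out 1 library, with log2 fold changes of -0.93 to -0.73 and adjusted p of 0.0516 to 0.135. Those libraries were all 4 untreated and T3-treated replicates 2, 3 and 4 under the WT label, and untreated replicates 1, 2 and 4 and T3-treated replicate 3 under the RXRgKO label. Without T3-treated WT-labelled replicate 1 the change was -1.30. The T3 change under the RXRgKO label was -0.095 ± 0.23 (adjusted p = 0.87), and it was -0.35 in libraries lacking Xist and 0.11 in those with Xist. The difference between the responses, 0.77 ± 0.34, had an unadjusted p of 0.0345 and an adjusted p of 0.886, so it did not pass, although the set term gave 0.80 (adjusted p = 0.038). Of the 9 genes it alone reached an unadjusted p under 0.05 in that test, which called 0.0658% of all genes (0.0101% higher and 0.0557% lower) and none of the 9.

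Abcg1 is also a gene of macrophages, and markers of other cell types moved with the genotype label. Of 10 tested microglia and macrophage markers, 9 were called higher under the RXRgKO label in both treatments. Of all genes, 6.17% were called higher there without T3 and 8.1% with it. All 11 listed markers summed to 2.85 to 4.61 CPM in untreated and 2.34 to 3.29 CPM in T3-treated WT-labelled libraries. In RXRgKO-labelled libraries they summed to 19.5 to 35.4 CPM before and 5.98 to 32.5 CPM after T3. Aif1, C1qc and Itgam had no count in some WT-labelled libraries, and no marker of this list was at 0 in an RXRgKO-labelled one. The T3-treated RXRgKO-labelled libraries with Xist had the lower marker sums of their group, 5.98 and 8.79 CPM, and its higher Abcg1 values, 11.1 and 11.3 CPM. Mural and fibroblast markers were at 58.0 to 63.7 and 39.0 to 50.9 CPM under the WT label and at 125 to 161 and 105 to 112 CPM under the RXRgKO label, with 4 of 6 called higher in both treatments. Endothelial markers, at 6.83 to 10.7 CPM under the WT label and 20.9 to 49.0 CPM under the RXRgKO label, had 3 of 4 tested called higher. Kdr made up most of that sum, at 5.72 against 30.6 CPM untreated, while Cldn5 was at 0.115 against 0.13 CPM. The part of these cell types in the Abcg1 difference was not tested. In bulk RNA more cells of a type and more RNA per cell cannot be told apart. The plot of Abcg1 beside the microglia and macrophage, mural and fibroblast, and astrocyte sums shows each library.

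**Figure D3:**
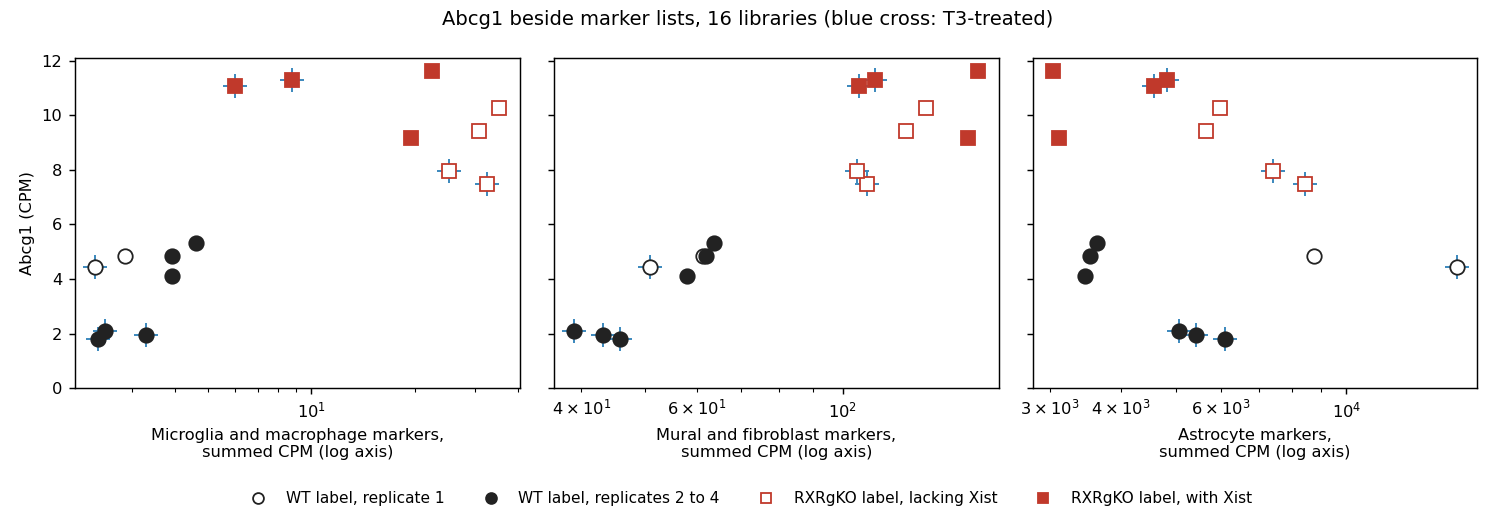
Each panel plots Abcg1 in CPM against the summed CPM of 1 marker list on a log axis, with 1 point per library and a blue cross on T3-treated ones. In the microglia and macrophage panel the 2 filled squares with crosses lie at 5.98 and 8.79 CPM of markers but at 11.1 and 11.3 CPM of Abcg1, above the open squares with crosses at 7.47 and 7.95 CPM.

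Apoe (chromosome 7, 19696109 to 19699188, minus strand) encodes the main lipoprotein carrier of the brain, made largely by astrocytes. Its level was 2784, 1223, 1146 and 1248 CPM in untreated and at 2500, 893, 1060.0 and 1449 CPM in T3-treated WT-labelled libraries. The untreated RXRgKO-labelled libraries had 2002, 1106, 1938 and 1102 CPM, and T3-treated ones 2013, 1757, 1253 and 1322 CPM. The spread followed the sets and not the labels or T3. The high values belonged to WT-labelled replicate 1 and to the RXRgKO-labelled libraries lacking Xist. In those libraries the summed astrocyte markers were also the higher ones of their group, with 8754 and 15687 CPM in WT-labelled replicate 1 where replicates 2 to 4 had 3455 to 6101 CPM, and at 5646 to 8438 CPM against 3035 to 4828 CPM among RXRgKO-labelled libraries. What part they had in the Apoe values was not tested. None of the 4 comparisons passed, with log2 fold changes from -0.12 to 0.10 and SE of 0.35, and the intervals reached from -0.85 to 0.84, so changes of up to about that size are not excluded by these libraries.

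Mylip (chromosome 13, 45389742 to 45412022, plus strand) encodes the ubiquitin ligase, also called IDOL, that sends lipoprotein receptors to degradation. It was a low transcript of 48 to 156 counts per library. Its values were 2.68, 2.62, 3.33 and 2.57 CPM in untreated and 2.65, 2.30, 2.30 and 2.97 CPM in T3-treated WT-labelled libraries. For RXRgKO-labelled libraries they were 2.64, 3.89, 3.02 and 4.66 CPM before and 2.86, 2.53, 2.68 and 2.78 CPM after T3. Only the 2 untreated RXRgKO-labelled libraries with Xist lay above all others. The T3 change there was -0.39 ± 0.18 (adjusted p = 0.289, edgeR), with -0.65 in the set with Xist and -0.07 in the set lacking it. With the set as a term it passed narrowly, at -0.39 (adjusted p = 0.0468). Between untreated labels the difference was 0.35 ± 0.18 (adjusted p = 0.278), and it passed at 0.60 (adjusted p = 0.0481) when libraries lacking Xist were left out. It also passed with the set as a term, at 0.49 (adjusted p = 0.0239, edgeR).

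Lpcat3 (chromosome 6, 124663027 to 124704418, plus strand) encodes the acyltransferase that puts polyunsaturated chains into membrane phospholipids. It overlaps Emg1 on the opposite strand, which averaged 109 CPM, and because the strand setting of the counting is not given, reads from the shared stretch cannot be assigned with certainty. Lpcat3 was at 60.1, 31.6, 33.2 and 31.7 CPM in untreated and 96.5, 38.8, 39.1 and 42.2 CPM in T3-treated WT-labelled libraries. Within each set of that label, T3-treated libraries were the higher ones. RXRgKO-labelled libraries had 36.5, 41.7, 38.9 and 40.6 CPM before and 45.3, 44.1, 57.0 and 60.5 CPM after T3, with no overlap. The changes with T3 were 0.47 ± 0.27 (adjusted p = 0.341, edgeR) and 0.39 ± 0.27 (adjusted p = 0.506), and neither passed. With the set as a term they passed at 0.42 (adjusted p = 7.06e-05) and 0.39 (adjusted p = 0.000227), and the replicate block on WT-labelled libraries gave 0.40 (adjusted p = 0.00779). Without T3-treated WT-labelled replicate 1 the change under the WT label was 0.01, and without untreated replicate 1 it was 0.77. In replicates 2 to 4 alone the T3 difference was 0.32.

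Between labels Lpcat3 differed by 0.0087 ± 0.27 without T3 and -0.067 ± 0.27 with T3 on the log2 scale (adjusted p = 0.991 and 0.923, edgeR). Without both WT-labelled replicate 1 libraries the difference with T3 turned to 0.38 (adjusted p = 0.0425). With the set as a term both differences passed, at 0.47 without T3 (adjusted p = 5.9e-05) and 0.44 with T3 (adjusted p = 7.29e-05). They are limited to the sets named for Nr1h2, and over all genes that fit called 8692 and 9943 in these comparisons.

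Scd1 (chromosome 19, 44394455 to 44407879, minus strand) and Scd2 (chromosome 19, 44293674 to 44306864, plus strand) encode stearoyl-CoA desaturases, which make monounsaturated fatty acids, and Scd2 is the main form of brain. Their open reading frames share 89.6% of aligned bases with an identical run of 147 bases, and Scd1 and Scd3 share 90.5%, so reads that fit several copies may be lost or misplaced and the split between copies is uncertain. Scd3 itself was at 0.123 to 0.639 CPM and Scd4 at 0.295 to 2.20 CPM, far below both. Scd1 was at 703, 370.0, 421 and 426 CPM in untreated and 1567, 696, 664 and 651 CPM in T3-treated WT-labelled libraries. In replicates 2 to 4 all T3-treated values lay above all untreated ones. The RXRgKO-labelled groups were at 457, 414, 434 and 405 CPM before and 661, 662, 475 and 508 CPM after T3, again without overlap.

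Scd1 rose with T3 under the WT label by 0.90 ± 0.27 on the log2 scale, 1.86-fold (adjusted p = 0.0482, edgeR). This call was also narrow and was lost in 14 of 26 alternatives, 13 of which leave out 1 library, with adjusted p of 0.0519 to 0.166. It was kept without untreated replicate 1 and without T3-treated replicates 3 or 4 of the WT label. Without T3-treated replicate 1 the value fell to 0.46, and without untreated replicate 1 it was 1.15. In replicates 2 to 4 alone the T3 difference was 0.72. Under the RXRgKO label the change was 0.43 ± 0.27 (adjusted p = 0.449), and it passed at 0.42 both without the WT-labelled replicate 1 libraries (adjusted p = 0.034) and with the set as a term (adjusted p = 0.000276). The difference of the responses was -0.47 ± 0.38 (adjusted p = 1.00) and -0.42 with the set as a term (adjusted p = 0.0215). Against the WT label with T3, Scd1 was at -0.63 ± 0.27 (adjusted p = 0.134), with 661 and 662 CPM in the libraries lacking Xist and 475 and 508 CPM in those with Xist. With the set as a term that difference passed at -0.42 (adjusted p = 0.000443, edgeR).

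Scd2 was at 4726, 2415, 2701 and 2532 CPM in untreated and 7881, 3589, 3483 and 3341 CPM in T3-treated WT-labelled libraries. RXRgKO-labelled values were 2434, 3053, 2401 and 2995 CPM before and 3136, 3013, 3940.0 and 3905 CPM after T3. As for Scd1, every set was higher with T3, by 0.74, 0.45, 0.35 and 0.38 on the log2 scale in the order used for Nr1h3. In the fit of 16 libraries the changes were 0.56 ± 0.28 (adjusted p = 0.246, edgeR) and 0.36 ± 0.27 (adjusted p = 0.547). They passed with the set as a term at 0.52 (adjusted p = 1.76e-06) and 0.36 (adjusted p = 0.000266), and with the replicate block on WT-labelled libraries at 0.51 (adjusted p = 0.00459). Without T3-treated WT-labelled replicate 1 the change under the WT label was 0.14, and without untreated replicate 1 it was 0.86. Between untreated labels the difference of -0.19 ± 0.27 turned to 0.29 (adjusted p = 0.00353) with the set as a term.

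The balance between the desaturases was compared as a share. Per kilobase, Scd1 made up 14.9% ± 0.677 (SD, n = 4) of Scd1 plus Scd2 in untreated WT-labelled libraries, with a range of 14.2% to 15.8%. With T3 it made up 17.9% ± 0.253, with a range of 17.6% to 18.2%. Replicate 1 did not stand apart in this ratio, and the groups did not overlap (two-sided exact permutation p = 0.0286, which no split of 4 and 4 libraries can undercut, and 0.229 adjusted over 8 comparisons). Under the RXRgKO label the share was 15.1% ± 2.28 untreated and 15.8% ± 4.13 with T3 (exact permutation p = 0.657), with a range of 11.9% to 19.7% among T3-treated libraries. The sets moved in opposite directions. Libraries lacking Xist had 17.3% and 16.8% untreated and 19.1% and 19.7% with T3. Those with Xist had 13.1% and 13.1% untreated and 11.9% and 12.7% with T3. After adjustment none of the 8 comparisons of shares passed.

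Within each of the 4 sets, then, Nr1h3, Lpcat3, Scd1 and Scd2 were higher with T3 than without it. In WT-labelled replicates 2 to 4 and in RXRgKO-labelled libraries with Xist, that compares libraries that also differ in Xist or Ddx3y as given above. Mylip was lower with T3 in all 4 sets, by values from -0.65 to -0.02, with overlap in 2 of them. Apoe ranged from -0.16 to 0.22, and Abca1 and Abcg1 went in opposite directions in different sets. Abcg1 ranged from 0.11 in RXRgKO-labelled libraries with Xist to -1.27 in WT-labelled replicates 2 to 4, and Abca1 from 0.71 in WT-labelled replicate 1 to -0.56 in replicates 2 to 4. The fit with the set as a term called 5 of the 9 genes with T3 under each label, Nr1h3, Lpcat3, Scd1 and Scd2 under both, with Abcg1 under the WT label and Mylip under the RXRgKO label. Over all genes that fit called 7599 and 6634, against 1668 and 555 without the term. Markers of mature oligodendrocytes rose with T3 as well, 5 of 8 under the WT label and 6 of 8 under the RXRgKO label. Of all genes 4.96% and 2.01% rose in these comparisons. The part of the markers in the differences within sets was not tested.

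**Figure D4:**
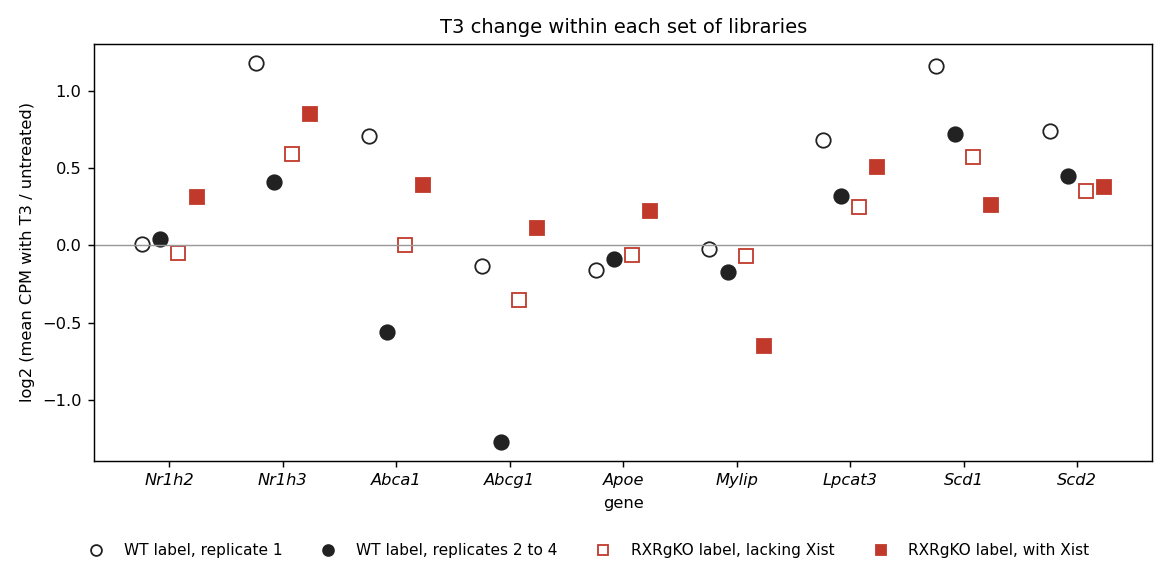
The vertical axis gives the log2 ratio of mean CPM with T3 to mean CPM untreated within a set of libraries, for each of the 9 genes. All 4 sets lie above 0 for Nr1h3, Lpcat3, Scd1 and Scd2, and the sets lie on both sides of 0 for Abca1 and Abcg1.

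Other genes of the LXR pathway were read from lists chosen by role. Of 18 other LXR targets 13 were tested, and the remaining 5 were at 0.681 CPM or less in every library. With T3 1 of the 13 rose under the WT label, beside 4.96% of all genes. It was the fatty acid elongase Elovl5, from 143 to 264 CPM (log2 fold change 0.89 ± 0.21, adjusted p = 0.0153, edgeR). Leaving out any of untreated replicates 2, 3 or 4 or T3-treated replicate 1 ended that call, with adjusted p of 0.0563 to 0.079. None of the 13 was called with T3 under the RXRgKO label by edgeR or DESeq2, with 1 at an unadjusted p under 0.05, while 2 were called without the WT-labelled replicate 1 libraries and 6 with the set as a term. The lipogenic targets Srebf1 and Fasn were at 0.48 ± 0.34 and 0.49 ± 0.23 with T3 under the WT label and were not called.

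Against the WT label, 3 of the 13 other targets were higher without T3 and 5 with T3, and none was lower, while 6.17% and 8.1% of all genes were higher. Pltp, the phospholipid transfer protein, was at 2.92 to 5.73 CPM in untreated WT-labelled libraries and at 15.5 to 23.0 CPM in untreated RXRgKO-labelled ones, 4.87-fold (adjusted p = 1.98e-05, edgeR). With T3 it was at 2.93 to 6.79 CPM against 14.3 CPM or more, 3.79-fold (adjusted p = 7.38e-05). Lpl, lipoprotein lipase, was 2.38-fold higher without T3 (adjusted p = 0.00896) and 2.69-fold higher with T3 (adjusted p = 0.00276). Arl4c, a small GTPase, was 1.31-fold higher (adjusted p = 0.0363) and 1.48-fold higher (adjusted p = 0.00281), and the first of these calls was lost in 12 of 16 omissions of 1 library. With T3 the apolipoprotein gene Apoc1 was 2.10-fold higher (adjusted p = 0.0194), and omitting any of T3-treated WT-labelled replicates 3 or 4 or RXRgKO-labelled replicate 2 ended that call. Smpdl3a, a phosphodiesterase gene, was 1.63-fold higher with T3 (adjusted p = 0.01). Pltp, Lpl and Apoc1 are also expressed by macrophages or vascular cells. Some but not all listed markers of these cells moved with the label as given above, and their part was not tested. Without the RXRgKO-labelled libraries lacking Xist, 2 of the 13 were called with T3, and Lpl, Apoc1 and Smpdl3a were at 0.75, 0.59 and 0.31 with adjusted p of 0.0625, 0.08 and 0.124. Without those with Xist, 8 were called.

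**Figure D5:**
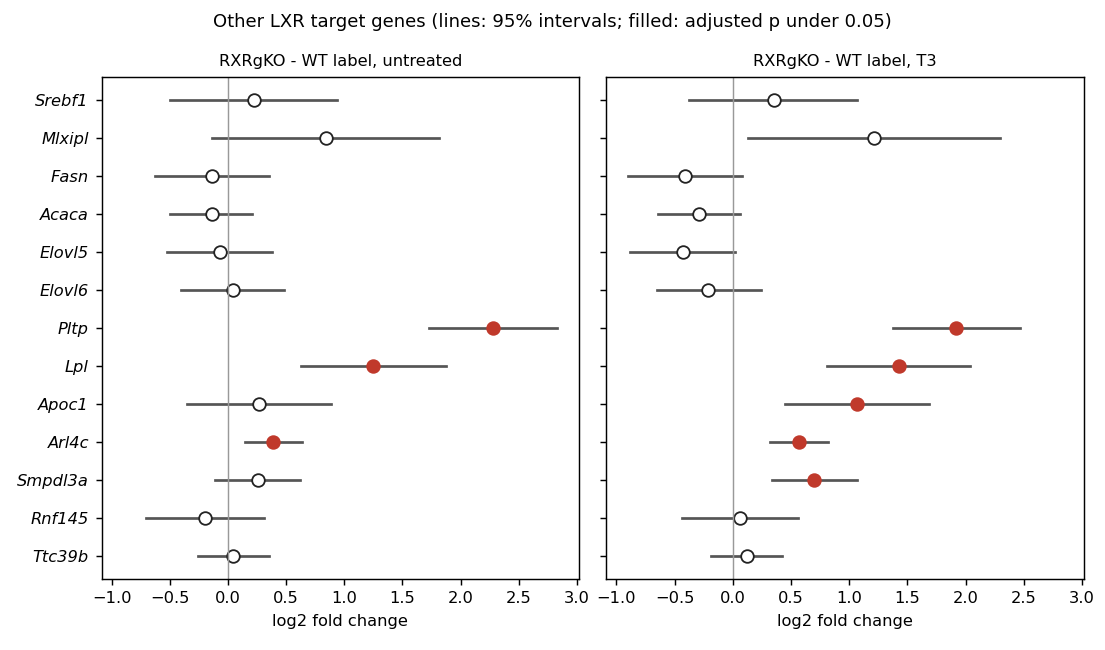
The panels plot the log2 difference between the RXRgKO and WT labels for the 13 tested other LXR targets, untreated and with T3, with 95% intervals as lines and called genes filled in red. Pltp, Lpl and Arl4c are called in both panels, and Apoc1 and Smpdl3a with T3.

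Of 8 tested genes that make or remove oxysterol and sterol ligands, 2 rose with T3 under the WT label, beside 4.96% of all genes. Cyp46a1, the brain cholesterol 24-hydroxylase, went from 28.1 to 33.2 CPM to 43.4 to 46.9 CPM (0.61 ± 0.15, adjusted p = 0.0181, edgeR), and the sterol desaturase gene Sc5d rose by 0.69 ± 0.17 (adjusted p = 0.02). Omitting 1 of 5 WT-labelled libraries (untreated replicates 2, 3 and 4, T3-treated replicates 2 and 3) ended the first call, and 1 of 4 (untreated replicates 2, 3 and 4, T3-treated replicate 1) the second. Against the WT label Cyp46a1 was lower under the RXRgKO label in both treatments, by -1.08 ± 0.15 (adjusted p = 0.000153) and -1.47 ± 0.15 (adjusted p = 7.27e-06). No other gene of the list was called. In the same comparisons markers of mature oligodendrocytes were called lower, 8 of 8 and 7 of 8, beside 5.16% and 6.8% of all genes. Markers of neurons were called higher there, 2 of 8 and 5 of 8, beside 6.17% and 8.1% of all genes. The part of these cell types in the Cyp46a1 difference was not tested.

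The receptors that take up apoE particles, among them the substrates of Mylip, gave 1 called gene of 7 in each comparison between groups. Of all genes, 8.44% and 2.81% were called with T3 under the WT and RXRgKO labels. Between labels 11.3% were called without T3 and 14.9% with it. Sorl1, a sorting receptor, rose with T3 under both labels, from 27.9 to 42.0 CPM to 128 to 187 CPM under the WT label (4.29-fold, adjusted p = 6.57e-06, edgeR) and from 29.3 to 44.5 CPM to 114 to 179 CPM under the RXRgKO label (4.05-fold, adjusted p = 1.74e-05). Between labels it differed by 0.07 ± 0.19 and -0.011 ± 0.19. Trem2, a microglial lipid receptor that is also on the microglia list, was called higher under the RXRgKO label, at 0.253 against 1.05 CPM (adjusted p = 0.0125) and at 0.0862 against 1.07 CPM with T3 (adjusted p = 0.000489). Vldlr and Lrp8, which are substrates of Mylip, were not called in any comparison of the fit without a set term. The count of 1 was not steady. For T3 under the WT label it was 3 without both replicate 1 libraries and 6 with the set as a term. Between untreated labels it was 3 on leaving out any of these sets and 6 with the set term. That term gave 4 for T3 under the RXRgKO label and 6 between labels with T3.

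Among 12 other lipid transporters and carriers, T3 lowered 1 under the WT label, beside 3.48% of all genes. This was Abca8a, from 7.01 to 2.14 CPM (adjusted p = 0.00427, edgeR). None of the 12 was called with T3 under the RXRgKO label, with 0 at an unadjusted p under 0.05 and 0 by DESeq2. There, 2 were called without the WT-labelled replicate 1 libraries, 1 without RXRgKO-labelled libraries lacking Xist and 5 with the set as a term. Abca2, a transporter of oligodendrocytes, was at 276 to 290 CPM in untreated WT-labelled and 73.1 to 121 CPM in untreated RXRgKO-labelled libraries (-1.53 ± 0.25, adjusted p = 0.000487), and it was -1.85 ± 0.25 with T3 (adjusted p = 8.04e-05). Without T3, Apod was higher under the RXRgKO label (2.15 ± 0.54, adjusted p = 0.0131) and Npc1 lower (-0.71 ± 0.22, adjusted p = 0.0497). The Apod call ended without untreated RXRgKO-labelled replicate 3 (1.71, adjusted p = 0.0555), and that of Npc1 in 15 of 16 omissions, all but that of T3-treated RXRgKO-labelled replicate 2. With T3, Npc2 was lower (-0.73 ± 0.22, adjusted p = 0.0301), a call lost in 5 of 16 omissions. Abcg4, the closest relative of Abcg1 examined here with 70.8% of aligned coding bases shared, was at 6.55 to 14.7 CPM and was not called in any comparison.

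Of 12 other desaturase and phospholipid remodelling genes none was called with T3 under either label by edgeR, with 4 and 1 at an unadjusted p under 0.05, and DESeq2 called 1 and 0. Under the WT label 3 were called without both replicate 1 libraries, 2 without either RXRgKO-labelled set, 6 with the set as a term and 0 to 3 with 1 library left out, and under the RXRgKO label 1 without the replicate 1 libraries and 3 with the set as a term. Between labels Scd4 and Fads3 were higher under the RXRgKO label without T3 (1.87 ± 0.30 and 1.02 ± 0.20, adjusted p = 0.000486 and 0.00246, edgeR) and with T3 (0.95 ± 0.29 and 0.92 ± 0.20, adjusted p = 0.0346 and 0.00415). The Scd4 call with T3 was lost in 5 of 16 omissions. Degs1 was lower with T3 (-0.68 ± 0.13, adjusted p = 0.00214). For a difference between the T3 responses, edgeR called no gene of these pathway lists, with at most 1 gene of a list at an unadjusted p under 0.05, and DESeq2 called 1, Rxrg. With the set as a term 1 RXR partner, 4 other LXR targets, 2 ligand genes, 1 receptor, 5 transporters and 0 desaturase or remodelling genes were called.

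Over the 16 libraries the levels of the 9 genes were compared by Pearson's correlation of log2 CPM, as a description. The points share libraries, groups and sets. Among the 9, Lpcat3 and Scd2 were the most alike (r = 0.928), followed by Scd1 and Scd2 (0.853) and by Abca1 and Abcg1 (0.771). Nr1h2 and Nr1h3 ran opposite (r = -0.514). Among 12314 protein-coding genes of at least 2 CPM, the most like Abcg1 were Flrt2 (0.982), Nr2f2 (0.963) and Adcy1 (0.961), and those most like Abca1 were Mxra8 (0.929), Pou3f2 (0.927) and Fam189a2 (0.925). Nearest to Scd1 were Acss2, which makes acetyl-CoA (0.952), Flvcr1 (0.936) and the malic enzyme gene Me1 (0.933). Nearest to Scd2 were Atl3 (0.972), Igf2bp2 (0.969) and Sdha (0.966), and to Lpcat3 Plcd1 (0.975), Dyrk1a (0.963) and Pmpca (0.962). For Apoe they were Glud1 (0.95), Mmd2 (0.944) and Pdk1 (0.933), genes that astrocytes also express at high levels in the case of Glud1 and Mmd2. Nr1h2 was most like Txlna (0.976), Prr14 (0.969) and Gpaa1 (0.966), Nr1h3 most like Nme7 (0.945), Ift22 (0.94) and Tmem183a (0.934), and Mylip most like Rrs1 (0.871), Ppid (0.847) and Syncrip (0.846).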

How the data were processed

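Raw gene counts were deposited by the authors for 16 libraries, 55335 Ensembl genes each. Per the submitters' processing notes, reads were handled with HTSeq 0.6.1p1, STAR 2.5.3a and bcl2fastq 2.17.1.14 on mm10, and per the labels' protocols poly-A RNA (200 ng input) was made into dUTP-stranded libraries. Neither strand setting nor annotation release is given in the sources used here. Left out were the 5 HTSeq summary lines, 53.3% to 77.6% of reads. Symbols, positions and exon lengths came from GENCODE M21 (GRCm38).

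All 16 libraries entered 1 edgeR 4.0.16 quasi-likelihood fit (R 4.3.3; TMM, filterByExpr, a mean per group, robust), with Benjamini-Hochberg adjustment over 19764 genes and calls at an adjusted p under 0.05. SE is the absolute log2 fold change over the square root of F. For log2 CPM the prior count was 2. The pipeline was tested on simulated data. Named were the 9 genes, the 3 RXR genes, up to 4 called genes per pathway list and comparison, the 3 most similar genes and set markers. Apoc1, Vldlr, Lrp8, Srebf1, Fasn, Scd3 and Abcg4 were added after their values were seen. Some genes of the lists are not reported here. The genes and lists were chosen with earlier results of these data known.

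Same-number correlations of residuals across T3 were 0.648, 0.247, 0.211 and 0.164 under the WT label. All were above 0.1, and numbers were taken as pairs there, though only replicates 1 and 3 were best matched to their own number. Replicates 2 to 4 also differed in Xist and Ddx3y across T3 as given above, so this pairing is unverified. Under the RXRgKO label the correlations were 0.543, -0.629, -0.697 and 0.6, and numbers were not taken as pairs. Alternatives were DESeq2 1.42.0, its size factors in edgeR, no low-count filter (49786 genes), only the groups compared, replicate blocks, the library set as a term, omission of each set (except WT-labelled replicates 2 to 4) or library, longest-transcript lengths.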

Additional observations from a re-analysis of the deposited data

Results flagged for a closer look

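In groups of 4 libraries, 10 of 36 combinations of gene and group had 1 library whose gap to the nearest other exceeded Dixon's 95% limit, where chance gives about 1 in 20. In 9 of the 10 it was WT-labelled replicate 1, as the highest library. Among untreated WT-labelled libraries these were Apoe at 2784 CPM, Lpcat3 at 60.1 CPM, Scd1 at 703 CPM and Scd2 at 4726 CPM. Among T3-treated ones they were Abca1 at 447 CPM, Abcg1 at 4.42 CPM, Lpcat3 at 96.5 CPM, Scd1 at 1567 CPM and Scd2 at 7881 CPM. The remaining one was Mylip at 3.33 CPM in untreated WT-labelled replicate 3. The genes share these libraries, so the 10 are not independent of each other.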

How the results depend on the processing

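Of the 9 genes, 2, 0, 1, 1 and 0 were called for T3 under the WT label, T3 under the RXRgKO label, the labels without and with T3, and the response difference. For T3 under the WT label the count was 1 without the low-count filter, 0 with only the groups compared, 1 with the replicate block on 16 libraries (Abcg1 at -0.89, adjusted p = 0.0502, edgeR), 5 with the replicate block on 8 WT-labelled libraries and 0 to 2 with 1 library omitted. With the set as a term the counts were 5, 5, 4, 5 and 2. Over all 19764 genes tested, the fit with that term called 7599, 6634, 8692, 9943 and 1321 in the same order. That term compares, for genotype, WT-labelled replicates 2 to 4 with the RXRgKO-labelled libraries with Xist, by construction. Without both WT-labelled replicate 1 libraries it was 1 for T3 under the RXRgKO label, 3 between labels with T3 and 1 for the response difference. Between labels it was 2 untreated without libraries lacking Xist, and 2 untreated and 3 with T3 without those with Xist. With 1 library omitted it was 1 to 2 with T3. Signs of called values turned for Scd2 (0.29, untreated labels, set term), for Nr1h2 and Lpcat3 (0.20 and 0.44, labels with T3, set term) and for Lpcat3 (0.38, labels with T3, without replicate 1 libraries). A further 65 sign changes, of values up to 0.38 called in neither fit, were not counted as reversals.

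Genes called moved from 1668 to 5084 (replicate block, WT label), 7599 (set term), 2688 (without WT-labelled replicate 1), 2800 and 2626 (without either RXRgKO-labelled set) for T3 under the WT label. From 555 for T3 under the RXRgKO label they moved to 1194 (DESeq2), 142 (replicate block), 6634 (set term), 1540.0 (without replicate 1) and 129 (without libraries with Xist). Between labels they moved from 2240 to 8692 (set term) and 4518 (without libraries with Xist) untreated, and from 2943 to 9943 and 5955 with T3. From 13 for the response difference they moved to 112 (DESeq2), 4 (replicate block), 1321 (set term), 118 (without replicate 1) and 26 (without libraries lacking Xist). With 1 library omitted the ranges were 997 to 2475, 253 to 779, 1712 to 2478, 2178 to 3307 and 3 to 49. The replicate block changed no other call of the 9 genes than those given. Without the low-count filter the share of T3 calls that were higher went from 58.8% to 70.7% under the WT label and from 71.7% to 85.0% under the RXRgKO label. Low counts limit Nr1h3, Abcg1 and Mylip, whose lowest counts in a library were 35, 44 and 48. The cause of these shifts was not tested.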
